A study of Brassica napus with 3 samples.

Results

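The regions described here are all peaks called for BnaC3.LFY on chromosomes A05 and C05 of rapeseed (Brassica napus). They were taken by chromosome name from the authors' deposited peak list, with no other condition, and number 6627 of the 62949 peaks in the list (10.5%): 2639 on A05 and 3988 on C05. The study used DNA affinity purification sequencing (DAP-seq), an assay that exposes fragments of naked genomic DNA to a factor produced in vitro and sequences the DNA it retains. It comprised 2 DAP libraries of BnaC3.LFY and 1 input library, labelled as shoot apices with DNA from inflorescence tissue, and the labels give no genotype or treatment contrast and do not say whether the DAP libraries came from separate plants. The deposited list is a single one for the series, so no value has an error between libraries, and the read depth behind it is unknown. Chromosome names and positions are those of the Westar v0 assembly, counted from 1.

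LEAFY (LFY) is a plant transcription factor that turns new lateral meristems into flowers instead of shoots, in part by switching on floral homeotic genes. Rapeseed is an allotetraploid that joined the A chromosomes of a Brassica rapa ancestor with the C chromosomes of a Brassica oleracea ancestor, and related A and C chromosomes are called homoeologues. Homoeologues share blocks of genes in the same order but are rearranged against each other, and C chromosomes carry more repeated DNA. The collinear blocks of A05 and C05 were not aligned here, so position along each chromosome is used as a ruler and not as a match between copies. Genes, centromeres and unresolved bases of the assembly were likewise not placed, and no sequence of the Westar v0 genome was used.

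The main contrast between the chromosomes lay in a single stretch of A05. Outside 14 to 28 Mb, A05 carried LFY peaks almost as densely as C05, whereas inside this stretch crowded and empty DNA lay next to each other. C05 was the most evenly filled of the 19 chromosomes, with a dip of 2 Mb. A05 also had fewer strong peaks per Mb than C05, and this held outside the 14 to 28 Mb stretch as well. Strength is given as fold, the enrichment of DAP reads over the local background in the authors' list, and strong peaks are the 10% of peaks on all 19 chromosomes with the highest fold (16.1 or more).

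Measured to the end of the last peak, A05 spans 43.6 Mb and C05 59.2 Mb. A05 held 60.5 peaks per Mb (95% exact Poisson interval 58.2 to 62.9) and C05 67.3 per Mb (65.3 to 69.4). The intervals treat peaks as independent and cover counting error only, and the same holds for all intervals below. Among the 9 other A chromosomes the density ran from 53.9 on A10 to 79.8 per Mb on A09, and 7 of them lay above A05. The 8 other C chromosomes ran from 62.0 to 70.4 per Mb, and C05 stood in the middle of them. The density of C05 was 1.11 times that of A05 (95% exact interval 1.06 to 1.17).

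Counted in bins of 1 Mb, A05 held 60.9 ± 29.9 peaks (SD, n = 43 bins) and C05 67.2 ± 14.7 (SD, n = 59 bins). The median bins were nearly equal, with 70 peaks on A05 and 69 on C05. Of the 43 complete bins of A05, 29 held 50 to 100 peaks, 7 held fewer than 20 and 3 held more than 100. On C05, 55 of 59 bins held 50 to 100 peaks, 2 held fewer than 20 and none held more than 100. The SD of C05 was the lowest and that of A05 the second highest of the 19 chromosomes, after A09.

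The fullest bins of A05 began at 22 Mb (127 peaks), 14 Mb (113) and 19 Mb (101). Its emptiest began at 24 Mb (1 peak), 26 Mb (3) and 23 Mb (4), so the fullest bin and 1 of the 3 emptiest touched each other at 23 Mb. The fullest bins of C05 lay in its first 12 Mb, beginning at 2 Mb (93 peaks), 1 Mb (90) and 11 Mb (86). Its emptiest began at 32 Mb (13 peaks), 31 Mb (16) and 58 Mb (41). Even the fullest bin of C05 thus held fewer peaks than the 3 fullest of A05.

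**Figure D1:**
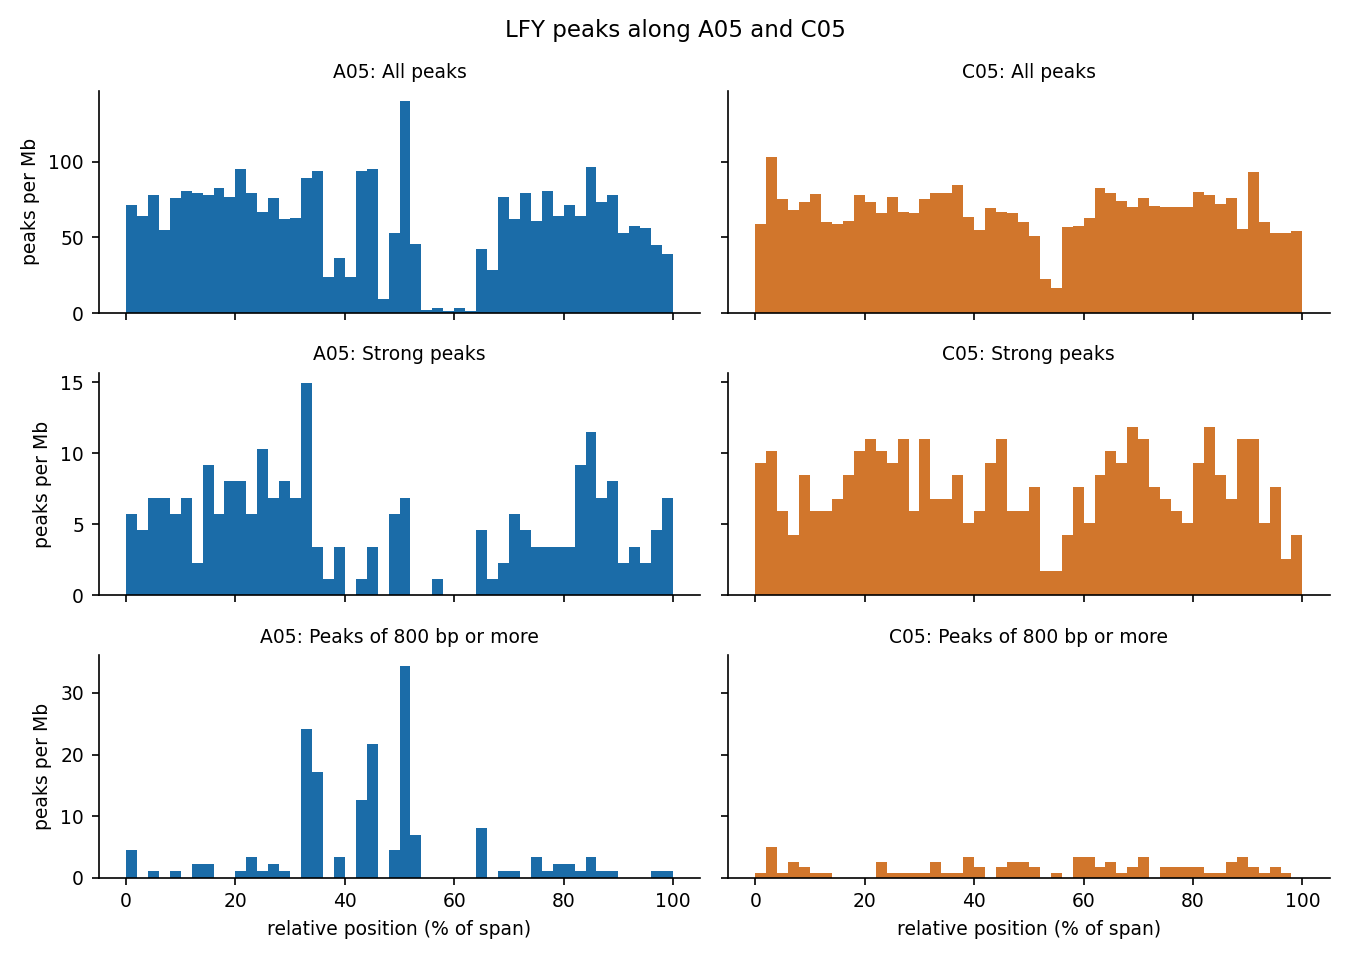
Peaks per Mb (y axis) in 50 bins of relative position along A05 (left, blue) and C05 (right, orange), for all peaks, strong peaks and peaks of 800 bp or more. A05 alternates between crowded and nearly empty bins in its middle and C05 has a single narrow dip. Of the 152 broad peaks of A05, 109 lie in its patchy segment from 14 to 23 Mb.

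From this profile A05 was divided, after the counts had been seen, into a left flank (0 to 14 Mb), a patchy segment (14 to 23 Mb), a sparse segment (23 to 28 Mb) and a right flank (28 Mb to the end). C05 was divided into its dip (31 to 33 Mb) and the parts on either side. These divisions follow the density itself. Differences between them in density, evenness, crowded windows, neighbour distances and clusters are therefore a description. The left flank of A05 held 73.9 peaks per Mb (69.4 to 78.5) and the right flank 62.6 (58.8 to 66.7). The patchy segment held 67.7 per Mb (62.4 to 73.3), a mean no higher than that of the flanks, which hid bins between 9 and 127 peaks. The sparse segment held 3.8 per Mb (2.29 to 5.93), or 19 peaks in 11.5% of the span. The dip of C05 held 14.5 per Mb (9.71 to 20.8), against 69.6 to its left and 68.6 to its right. Both flanks of A05 together held 67.9 peaks per Mb and C05 without its dip 69.2, a ratio of 1.02 (95% exact interval 0.965 to 1.07).

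By relative position the low points of the chromosomes lay side by side, at 52.8 to 64.2% of the span for the sparse segment of A05 and at 52.3 to 55.7% for the dip of C05. In steps of 20% of the span, A05 held 74.1, 68.6, 46.8, 49.9 and 63.3 peaks per Mb from start to end. C05 held 71.5, 73.0, 52.1, 72.6 and 67.4. The step from 40 to 60% was thus the lowest on both, and the step from 60 to 80% was low on A05 alone. In steps of 5%, A05 held 11.9, 49.1, 72.9 and 65.6 peaks per Mb from 60 to 80%. It was thus low only up to 70%. Over 20 bins of relative position, Pearson's r between the profiles was 0.111 (Spearman's rho 0.00866), and 0.0702 with C05 reversed (rho -0.162). The other 89 pairs of an A and a C chromosome ranged from -0.690 to 0.848 in assembly order, with a median of 0.000736, and 35 of them lay above A05 and C05. The correlation depended on the bin size, with an r of 0.438 over 10 bins and 0.217 over 50.

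Towards the ends, the outer 25% on each side of A05 held 69.8 peaks per Mb and the middle 50% held 51.2, a ratio of 1.36. Among other A chromosomes this ratio ran from 0.659 on A03 to 1.59 on A10. On C05 the ends held 69.9 and the middle 64.7 per Mb, a ratio of 1.08, where other C chromosomes ran from 0.873 to 1.33. With this division the ends were about equally filled and the middles differed. Without peak-free intervals of 500 kb or more, the ratio was 1.11 on A05 and 1.05 on C05. With only the outer 10% on each side as ends, the ends held 59.4 peaks per Mb on A05 and 69.2 on C05, and the ratio of A05 was 0.977. With the outer 5 Mb as ends the ratio of C05 was 0.975. The first peak of A05 began at 123584 and that of C05 at 38850. On A05 the last 5% of the span held 45.0 peaks per Mb and on C05 50.6, each below its own mean.

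Unevenness was measured as the variance of the peak count per window divided by its mean, which is 1 for even random placement and grows with the mean count. In windows of 100 kb it was 3.90 on A05, exceeded only by A09, and 1.38 on C05, the lowest of the 19 chromosomes. The left flank of A05, taken alone, had a value of 1.30, below that of C05, and the right flank 2.08. In the stretch from 14 to 28 Mb it was 10.1. C05 without its dip came to 1.21. The right flank stayed above C05, at 1.85, also when counted only beyond the long empty interval next to the sparse segment.

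With wider windows the values moved further apart. At 1 Mb the ratio was 14.6 on A05 and 3.23 on C05, against 8.06 to 21.7 on other A and 3.79 to 8.63 on other C chromosomes. The left flank of A05 still had 1.11 at this width, while the stretch from 14 to 28 Mb had 47.4. C05 without its dip had 1.77, above that left flank. At 10 kb, the narrowest width, A05 had 1.55 and C05 1.06. C05 lay below every other C chromosome at each of the 8 widths, and A05 within the range of the other A chromosomes at each.

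**Figure D2:**
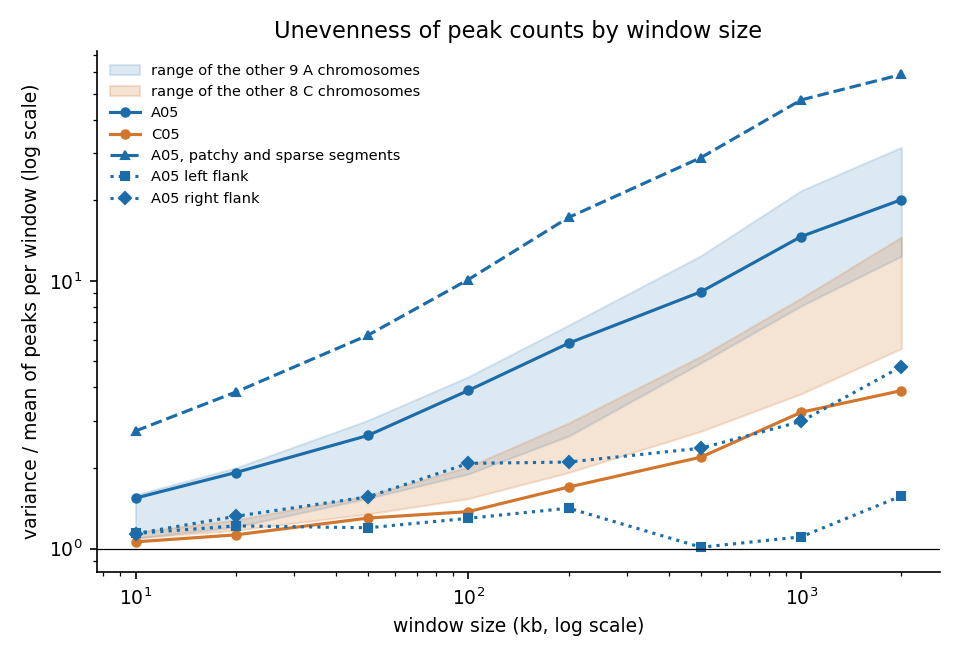
Variance divided by mean of peaks per window (y axis, log scale) against window size (x axis, log scale) for A05, its segments and C05, with bands for the range of the other chromosomes and a line at 1. The left flank of A05 stays between 1.01 and 1.57 at all 8 widths, while the stretch of its patchy and sparse segments climbs from 2.75 to 59.0.

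A05 had 6 peak-free intervals of 500 kb or more and C05 had 1, where no other chromosome had more than 4. All 6 of A05 lay in the sparse segment, within less than 5 Mb of each other. They ran from 23188394 to 23741213 (553 kb), from 24107061 to 25024283 (917 kb), from 25132811 to 25857952 (725 kb), from 25858250 to 26435898 (578 kb), from 26762940 to 27388527 (626 kb) and from 27388909 to 27975312 (586 kb). Together they made up 3.98 Mb, or 79.7% of the sparse segment. The interval of C05 ran from 32060514 to 32844335 (784 kb). None reached 1 Mb, so the longest interval of A05 was shorter than the longest on 7 of the 9 other A chromosomes, and the empty DNA of A05 stood out by the number of its intervals and not by their length. With a minimum of 250 kb, A05 had 13 and C05 3. Unresolved bases of the assembly, which cannot hold a peak, were not located.

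Single peaks broke the sparse segment of A05 into these intervals. The peak from 23741214 to 23741612 (fold 9.10) stood alone between intervals of 553 and 365 kb. Other lone peaks began at 24106704 (fold 6.23), 25857953 (fold 6.29) and 27388528 (fold 7.09). A group of 3 lay between 25024284 and 25132810, and its members had folds of 24.4, 7.57 and 15.6. The median fold of the sparse segment was 6.48 over only 19 peaks, against 5.99 on the left flank and 5.93 on the right. Of the 19, 6 lay in a group at its right border, from 27975313 to 27997210, which held 2 of the 3 strong peaks. The other 13 held 1.

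A crowded block lay across the border of the sparse segment and the right flank. It ran from 27975313 to 28059263, between peak-free intervals of 586 and 471 kb, and held 22 peaks in 84.0 kb. Of these, 7 were 800 bp or wider and 2 were strong, with a median fold of 5.92. The patchy segment also had longer blocks between empty intervals, at densities below the 262 peaks per Mb of this block. A block of 3268 kb from 16360002 to 19628261 held 218 peaks (66.7 per Mb). Another of 2854 kb from 20333945 to 23188393 held 216 (75.7 per Mb). Between them lay only 3 peaks in 10.2 kb, with empty intervals of 315 and 381 kb on either side. In the dip of C05 the blocks were small, with 4 peaks in 119 kb from 31594841 to 31713636 and 3 in 84.2 kb from 31976328 to 32060513.

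Windows of 100 kb with 20 or more peaks numbered 9 of 435 on A05 (2.07%) and 0 of 592 on C05, where 0.644% of windows on all 19 chromosomes reached this count. All 9 lay in the patchy segment, in 7 stretches. They stood at 14.5 to 14.6 Mb (20 peaks), 14.9 to 15.1 Mb (45), 18.8 to 19 Mb (47), 19.3 to 19.4 Mb (20), 21.9 to 22 Mb (21), 22.2 to 22.3 Mb (30) and 22.8 to 22.9 Mb (26). None was longer than 2 windows. With the windows shifted by 50 kb the counts were 8 on A05 and 1 on C05. From the 30 peaks at 22.2 Mb, the densest window of the chromosome, it was less than 1 Mb to the sparse segment.

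With a minimum of 15 peaks, A05 had 19 such windows (4.37%) and C05 7 (1.18%), against 2.72% on all chromosomes. Of the 19, 14 lay in the patchy segment, 2 near the left end, 1 in the crowded block at 28 Mb and 2 near 32 Mb. The 7 of C05 were single windows of 15 to 17 peaks scattered at 2.1, 11.6, 18.6, 22, 49.1, 51.3 and 53.4 Mb. Crowded windows of A05 and C05 differed in their shares of strong and of broad peaks. On C05 14.7% of their peaks were strong (95% Wilson interval 9.24 to 22.5%), against 11.3% of all its peaks. On A05 5.28% were strong (3.44 to 8.01%), against 7.81% of all its peaks. Peaks of 800 bp or more were 2 of 109 on C05 (1.83%) and 69 of 379 on A05 (18.2%). Among all peaks of C05 and A05 they were 2.18% and 5.76%. The shares in crowded windows of C05 thus lay near those of the whole chromosome. On A05 the interval for strong peaks also included the share of all its peaks, and only broad peaks stood apart from it.

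Distances between neighbouring peaks showed the same contrast from the side of the single pair. Edges of neighbours lay 7336 bp apart at the median on A05 and 8850 bp on C05. At the 10th percentile the distance was 588 bp on A05 and 1202 bp on C05, and at the 99th 135635 bp and 81054 bp. A05 thus had both more close pairs and more wide gaps. Edges within 500 bp were found for 226 of 2638 pairs on A05 (8.57%, 95% Wilson interval 7.56 to 9.70%) and 149 of 3987 on C05 (3.74%, 3.19 to 4.37%), against 5.27% on all chromosomes. A06 (9.02%) and A09 (12.7%) had higher shares than A05. Of the A05 pairs, 128 lay in the patchy segment, where 21.1% were this close (18 to 24.5%). As this segment was chosen after the counts had been seen, its share of close pairs only describes it. The flanks of A05 had 4.94% and 4.71%, and the parts of C05 on either side of its dip 3.43% and 4.17%.

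**Figure D3:**
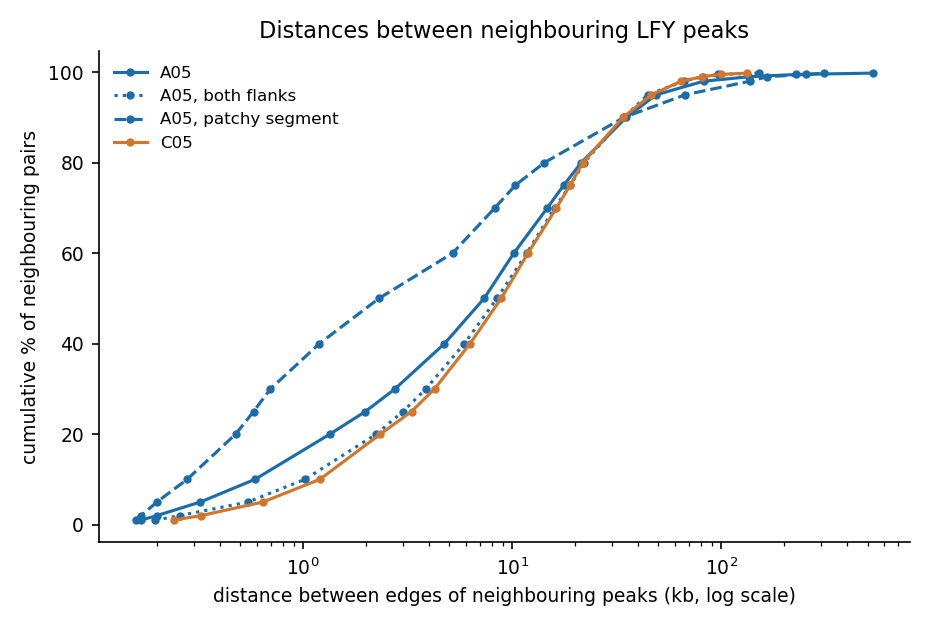
Cumulative percentage of neighbouring pairs (y axis) against the distance between their edges (x axis, log scale) for A05, both flanks of A05, its patchy segment and C05. The curve of the flanks runs close to that of C05, with medians of 8451 and 8850 bp, while the patchy segment has a median of 2306 bp.

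Clusters, taken as 3 or more peaks with edges of neighbours within 1000 bp, numbered 74 on A05 and 27 on C05. They held 281 peaks on A05 (10.6%) and 84 on C05 (2.11%), against 4.48% on all chromosomes, and A06 (11.02%) and A09 (16.4%) exceeded A05. Of the 74, 56 began in the patchy segment. The largest had 11 peaks from 22224409 to 22233331, within 8.92 kb, with folds of 3.45 to 12.1 and no strong peak. It was followed by 2 clusters of 7, from 19337367 to 19347707 (median width 969 bp) and from 28042352 to 28051589 (888 bp). None of the clusters on C05 had more than 4 peaks, and 3 had 4: from 1687051 to 1690401, from 8799394 to 8802297 and from 39113709 to 39116895. The second of these held a peak of 28.5-fold, while the third held folds of 3.36 to 4.12. At the opposite end, peaks with no neighbour within 40 kb numbered 41 on A05 (1.55%) and 24 on C05 (0.602%), against 0.774% on all chromosomes. Of these lone peaks, 1 was strong on A05 and 2 on C05.

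Peaks were 375 bp wide at the median on A05 (quartiles 298 and 464) and 367 bp on C05 (298 and 458). The medians thus differed little, and the widths parted in the upper tail, with a 90th percentile of 647 bp on A05 and 568 bp on C05. Peaks of 800 bp or more numbered 152 on A05 (5.76%, 95% Wilson interval 4.93 to 6.71%) and 87 on C05 (2.18%, 1.77 to 2.68%), against 3.18% on all chromosomes. Only A09 and A06 had a higher share than A05. In the patchy segment 109 of 609 peaks were this broad (17.9%, 15.1 to 21.1%). On the left flank the share was 1.74%, on the right flank 2.25%, and on both flanks together 1.99%, close to C05.

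The widest peak of A05 covered 3139 bp from 19500610 to 19503748, with a fold of 6.81. The next were 2961 bp from 14567728 to 14570688 (fold 12.5) and 2886 bp from 14856945 to 14859830 (fold 5.73). All 3 lay in the patchy segment and had modest fold. On C05 the widest covered 1729 bp from 21474489 to 21476217, with a fold of 49.3, and was also among its 10 strongest. It was followed by 1511 bp from 38029766 to 38031276 (fold 7.90) and 1308 bp from 41716537 to 41717844 (fold 42.0).

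Width grows with fold in this list, so widths were also compared within classes of fold. Between folds of 4 and 6 the median was 340 bp in the patchy segment, 303 bp on the flanks of A05 and 303 bp on C05. Between 8 and 10 it was 546, 410 and 403 bp, and from 10 to 15 it was 624, 430 and 444 bp. Broad peaks made up 32.5% of the class from 8 to 10 in the patchy segment (25 of 77), 2.86% on the flanks and 3.19% on C05. The flanks of A05 were thus close to C05 in these classes, and the patchy segment had the wider peaks in each. In the same classes its peaks had the lower -log10 q, the authors' measure of how surely a peak exceeds the background. From 8 to 10 the median -log10 q was 16.8 in the patchy segment, 19.4 on the flanks and 19.4 on C05. From 10 to 15 it was 26.3, 31.9 and 32.4.

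**Figure D4:**
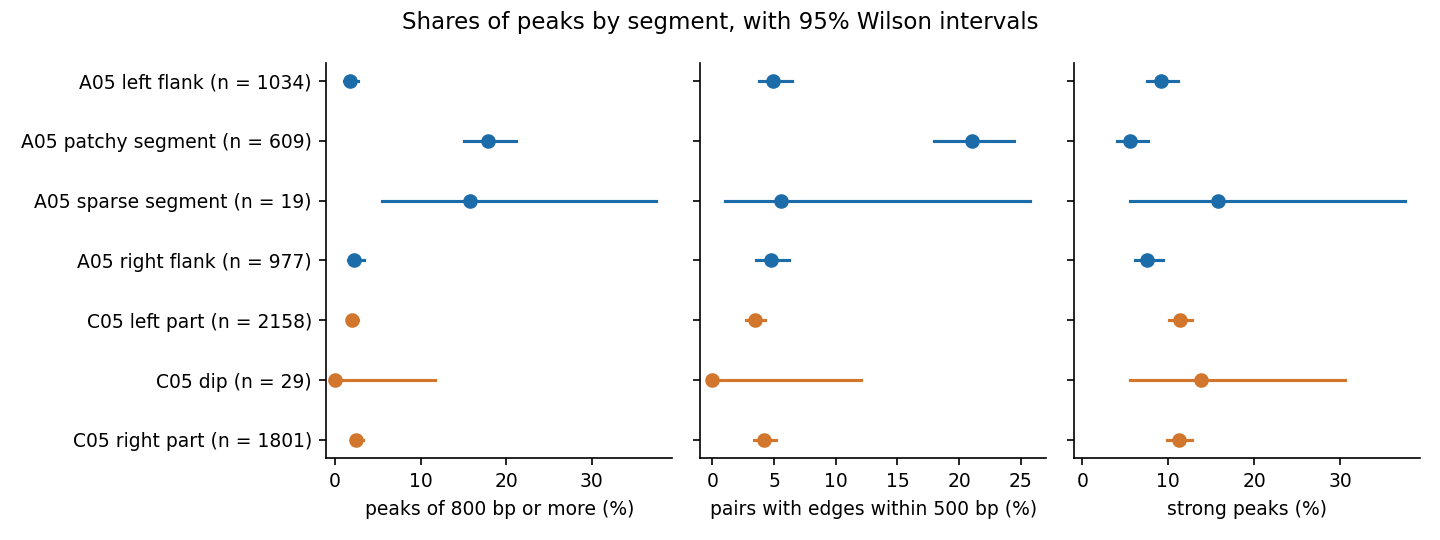
Share of peaks of 800 bp or more, share of neighbouring pairs with edges within 500 bp and share of strong peaks (x axes, percent) in each segment of A05 (blue) and C05 (orange), with points for the share, bars for the 95% Wilson interval and n for the number of peaks. The patchy segment of A05, chosen after the counts had been seen, has the highest shares of broad peaks (17.9%) and close pairs (21.1%). Its share of strong peaks, 5.58%, is the lowest, and the sparse segment and the dip rest on only 19 and 29 peaks.

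In strength the chromosomes had like medians, with a fold of 6.07 on A05 and 6.27 on C05, the highest median of all 19. Strong peaks made up 206 of the peaks of A05 (7.81%, 95% Wilson interval 6.84 to 8.89%) and 450 of those of C05 (11.3%, 10.3 to 12.3%), against 10% on all chromosomes. That is 4.73 per Mb on A05 and 7.60 per Mb on C05, a ratio of 1.61 (95% exact interval 1.36 to 1.91). Every C chromosome exceeds every A chromosome in this measure, so the direction is that of the subgenomes. Of the 9 other A chromosomes, 2 had fewer strong peaks per Mb than A05 and 1 had a lower share. Weaker peaks stood at 55.8 and 59.7 per Mb, a ratio of 1.07.

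The ratio of C05 to A05 varied with fold, without a steady rise below 15. From 4 to 6 the densities were 23.03 and 23.58 per Mb and from 6 to 8 they were 12.5 and 12.4. From 8 to 10 the ratio was 1.18 (95% exact interval 1.01 to 1.39) and from 10 to 15 it was 1.09 (0.940 to 1.26). From 15 to 20 it was 1.36 (1.09 to 1.70), and from 20 to 30 it was 1.56 (1.20 to 2.03). From 30 upwards A05 had 31 peaks and C05 102, a ratio of 2.42 (1.61 to 3.75). From 50 upwards the counts were 5 and 9, with a ratio of 1.32 whose interval, 0.399 to 5.03, included 1. Below a fold of 4, C05 was also the denser, with a ratio of 1.23 (1.06 to 1.43).

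**Figure D5:**
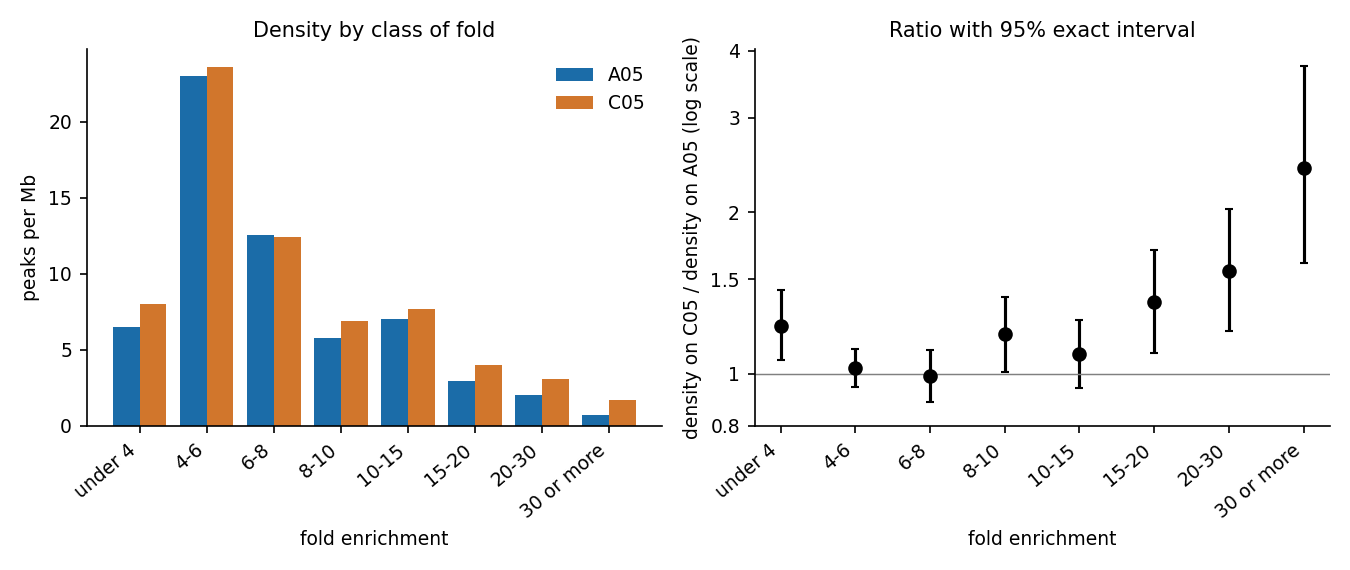
Peaks per Mb on A05 and C05 by class of fold enrichment (left, y axis from 0) and the ratio of C05 to A05 in each class with its 95% exact interval (right, log scale, grey line at equal density). The ratio lies near 1 between folds of 4 and 8 and reaches 2.42 from a fold of 30 upwards.

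The stretch from 14 to 28 Mb held part of the shortfall of strong peaks on A05. Without it and without the dip of C05, strong peaks stood at 5.71 per Mb on A05 and 7.79 on C05, a ratio of 1.36 (95% exact interval 1.14 to 1.64), and weaker peaks at 62.2 and 61.4, a ratio of 0.986 (0.932 to 1.04). Along A05 the left flank held 6.79 strong peaks per Mb (5.49 to 8.30), the patchy segment 3.78 (2.62 to 5.28), the sparse segment 0.600 (0.124 to 1.75) and the right flank 4.74 (3.73 to 5.96). Cut at 36 Mb, the right flank held 3.50 per Mb before the cut (28 of 504 peaks) and 6.06 per Mb after it (46 of 473). As shares these were 5.56% (95% Wilson interval 3.87 to 7.91%) and 9.73% (7.37 to 12.7%), with overlapping intervals. This cut was made after the counts had been seen, so the difference is only a description. On C05 the parts left and right of the dip held 7.87 and 7.70 per Mb. In steps of 5% of the span, strong peaks of A05 stood at 5.51 per Mb at the start, at 10.1 from 30 to 35% and at 1.84 in the next step. The outer 25% on each side and the middle 50% held 6.01 and 3.44 strong peaks per Mb on A05, the latter below 8 of the 9 other A chromosomes, and 7.73 and 7.46 on C05.

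Within the patchy segment, strong peaks were spread unlike the peaks as a whole. From 14 to 16 Mb 15 of 171 peaks were strong, and 14 of these lay in the single bin from 14 to 15 Mb. From 18 to 20 Mb only 4 of 179 were strong (2.23%, 95% Wilson interval 0.872 to 5.60%), although broad peaks made up 16.8% there. From 20 to 21 Mb 0 of 9 were strong. From 21 to 23 Mb 11 of 204 were strong (5.39%, 3.04 to 9.40%) and 40 broad. The intervals of these pieces overlapped, so their shares of strong peaks are only a description. In the 9 windows of 20 or more peaks, 6 of 209 peaks were strong (2.87%, 1.32 to 6.12%) and 45 were broad. These 9 windows thus held many broad and few strong peaks. The bin from 14 to 15 Mb, which contains some of them, nevertheless had the most strong peaks of any on A05. The 4 windows of 15 or more peaks at 0.3, 1.9, 31.7 and 32 Mb, on the flanks, held no broad peak. Across bins of 1 Mb, counts of strong and of weaker peaks had a Pearson's r of 0.565 on A05 (n = 43) and 0.406 on C05 (n = 59). The bins are neighbours on a chromosome and share its empty stretches.

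The 10 strongest peaks of A05 had folds of 41.3 to 71.0 and those of C05 49.3 to 65.9. On A05 none lay between 14 and 28 Mb, where the patchy and sparse segments held 16.5% and 1.46% of its strong peaks. With only 10 peaks, finding none there is not far from these shares. The strongest ran from 11417973 to 11420352 and covered 2380 bp, with a fold of 71.0 and a -log10 q of 355, the highest of the whole list. Its fold ranked 15 on the 19 chromosomes. The second, from 11445004 to 11445658, had a fold of 54.1 and lay 24.7 kb away. These were part of a group of 5 of the 10 between 9 and 12 Mb, with peaks from 10763358 to 10763877 (fold 49.6), from 10623364 to 10623882 (fold 45.6) and from 9405455 to 9405964 (fold 42.7). Near the left end lay peaks from 2915065 to 2915616 (fold 51.4) and from 4404629 to 4405364 (fold 47.6). The right flank held those from 36486056 to 36486604 (fold 52.8), from 31048755 to 31049274 (fold 52.1) and from 36232283 to 36233345 (fold 41.3).

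On C05 the strongest peak ran from 24607741 to 24608321, with a fold of 65.9 and a width of 581 bp. It was followed by peaks from 12940810 to 12941407 (fold 55.7), from 41377544 to 41378318 (fold 54.6) and from 7871255 to 7871825 (fold 52.4). Peaks of similar fold ran from 16184929 to 16185462 (52.0), from 18274222 to 18274876 (51.4), from 3937622 to 3938175 (51.2), from 46032562 to 46033171 (51.1) and from 35723841 to 35724402 (50.2). The last of the 10 was its widest peak, at 49.3. Unlike those of A05, the strongest peaks of C05 were scattered along it, and no pair of them lay within 1 Mb. Even in the dip, 4 of 29 peaks were strong. They began at 31139432 (fold 35.5), 31234515 (fold 21.3), 32926406 (fold 34.4) and 32998071 (fold 16.2). Which genes lie near any of these peaks was not analysed here.

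Some rows of the list carry a fractional score or more than 6 significant digits, as an average over several lines of a peak caller would, and how the authors combined their calls is not stated. This sign, read from the score, fold and -log10 q, was present in 63.3% of the peaks of A05 and 63.5% of those of C05. In the patchy segment it was present in 69.3% (95% Wilson interval 65.5 to 72.8%), against 62.0% on the left flank and 60.8% on the right. Peaks with the sign were the wider, with medians of 417 bp against 290 bp without it on A05, and 405 bp against 288 bp on C05. Their median fold was also higher, at 7.30 against 4.81 on A05 and 7.76 against 4.82 on C05. The part of the sign in the greater width of the patchy segment was not tested.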

How the data were processed

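The authors' deposited list has 7 columns and no header, and its rows were used as deposited. The columns were read from their order as position, a score, a fold (the ratio of DAP signal to local background), a -log10 p (used for no printed value) and a -log10 q, each the authors' own value per peak. The submitters' processing notes name MACS2, HOMER, Bowtie2, fastp and SAMtools. Neither their versions and thresholds nor the way replicates were combined is given in the sources used here. The list names no library, so replicates could not be compared, depth is unknown and no test was run.

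Peaks were placed by midpoint and counted in fixed windows (Python 3.11.15, numpy 2.4.6, pandas 2.3.3, scipy 1.17.1, matplotlib 3.10.9). Chromosome span is the end of the last peak. Intervals at 95% are exact Poisson for densities, exact conditional binomial for ratios and Wilson for shares. On simulated positions the variance-to-mean ratio, the finding of a peak-free interval and the count of a planted crowded window were checked. The Poisson limit was checked against a known value, and the other measures were not checked. The named regions are the 10 strongest and 3 widest peaks per chromosome, all peak-free intervals of 500 kb or more, all crowded stretches, the 3 fullest and emptiest bins of 1 Mb and the 3 largest clusters. Blocks and lone peaks of the sparse segment and of the dip were added after their values were seen. The same holds for the pieces within the patchy segment and the right flank. Members, measures and thresholds were chosen with earlier results of these data known, and the segments after seeing the counts. Alternatives covered peak filters, window sizes and definitions.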

Additional observations from a re-analysis of the deposited data

How the results depend on the processing

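Each value below is a main result under another setting. With only peaks of -log10 q of at least 10, the density of C05 was 1.19 times that of A05 and the variance-to-mean ratio of A05 in 100 kb windows was 2.35. Using only peaks without the digits of an average, the strong-peak ratio of C05 to A05 was 1.998 and the variance-to-mean ratio 1.88 on A05 and 1.10 on C05. With only the peaks that carry them, the correlation of the relative-position profiles was -0.0166. These values depend on the columns in which the digits are read: reading the -log10 p as well marked more peaks and gave a higher strong-peak ratio without the mark, and a correlation just above 0 with it. Fewer peaks lower the variance-to-mean ratio by construction. Leaving out peak-free intervals of 500 kb or more gave a density ratio of 1.02, and leaving out windows of 15 or more peaks gave 1.22; the variance-to-mean ratio of A05 was 3.08 without windows of 20 or more peaks and 2.89 without empty windows. With strong peaks taken as the top 5% the strong-peak ratio was 1.97, and from a fold of 30 it was 2.42. The ratio of ends to middle on A05 was 0.977, and so turned below 1, with the outer 10% on each side as ends, and 1.03 with the outer 5 Mb; on C05 it turned to 0.975 with the outer 5 Mb. In windows of 50, 200, 500 and 1000 kb the variance-to-mean ratio of A05 was 2.65, 5.85, 9.11 and 14.6, and in the last 3 of these that of C05 was 1.70, 2.20 and 3.23. The causes were not tested. The density ratio and the strong-peak ratio stayed above 1, and the variance-to-mean ratio of A05 above that of C05, under each setting in which they were computed, and not every setting was run for every result. Among the 88 alternatives, 19 values of main results and 28 of others moved beyond the tolerance set for them, and 2 and 1 reversed. No paired analysis was possible because there is 1 list for the series, and leaving out a replicate was not run for the same reason. Depth is unknown, so weak peaks missed for lack of reads could not be judged.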
